A study of Mus musculus with 2 samples.

Results

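Imprinted genes are transcribed mainly or only from the chromosome inherited from one parent. Of 33 such genes chosen by symbol, all were found in the gene tables of this study, in 32 of 23793 rows. *Snrpn* and *Snurf* share a row, and 3 rows join a listed gene to other symbols (*Snrpn* with *Snurf*, *Meg3* with *Mir1906-2* and *Mir770*, and *Mirg* with *Mir369*, *Mir410* and *Mir412*). Messenger RNA had been measured in epithelial cells of mouse small-intestinal organoids, which are gut crypts grown in a gel. The organoids came from the ChgA-GFP reporter strain, in which the chromogranin A gene (*Chga*) of enteroendocrine cells drives a green fluorescent protein. GFP+ cells, about 1% of the epithelium, were sorted from GFP- cells, and each fraction gave 1 library. Both fractions carry the reporter, and the labels give no age, no sex and no number of animals. The reporter marks cells that express *Chga*, so GFP+ stands for that class of enteroendocrine cell, and the small RNA inputs were amplified from polyadenylated RNA. Since each fraction has a single library, differences are descriptions of these libraries, without replicates, tests or SDs.

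Imprinted genes lie in clusters that share an imprinting control region, a stretch of DNA methylated on the maternal or the paternal chromosome only. The methylation is set in the germ line and kept in the embryo, so that some genes of a cluster are read from the father's copy (*Peg3*, *Peg13*, *Snrpn*, *Dlk1*) and others from the mother's (*H19*, *Meg3*, *Phlda2*). Many of them act on fetal and placental growth, and several are abundant in brain and in hormone-producing glands. The deposited values do not separate the parental copies, so only total levels are described here.

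Levels are in FPKM, the fragment count of a gene divided by transcript length and library size, and differences are log2((FPKM + 1) in GFP+ / (FPKM + 1) in GFP-), which understates the change of low genes. A gene was set apart where this difference was at least 2 in either direction, a 4-fold change on that scale. Of the 32 rows, 10 reached 1 FPKM in either library, and 22 stayed below it in both. In GFP+, 3 of the 10 were at least 4-fold higher (*Peg3*, *Peg13* and *Casd1*) and 1 was at least 4-fold lower (*Phlda2*). Among all 11868 symbols that reached 1 FPKM in either library, 7.09% were as much higher and 4.59% as much lower. The median difference of the 10 rows was 1.11, against -0.12 over all symbols compared. *Peg3*, *Casd1* and *Impact* were below 1 FPKM in GFP- and entered only through GFP+ and so had to be higher there, and neither the count nor the median supports a statement about the genes as a class. In such bulk libraries, fewer cells of a type and less RNA per cell cannot be told apart. As deposited, 841 symbols of the whole table were higher and 545 lower. With the median ratio of well-expressed genes set to 0, 1317 were higher and 184 lower, and with both libraries brought to the same total 1717 and 153. The median over all symbols compared was then 0.35 and 0.50.

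**Figure D1:**
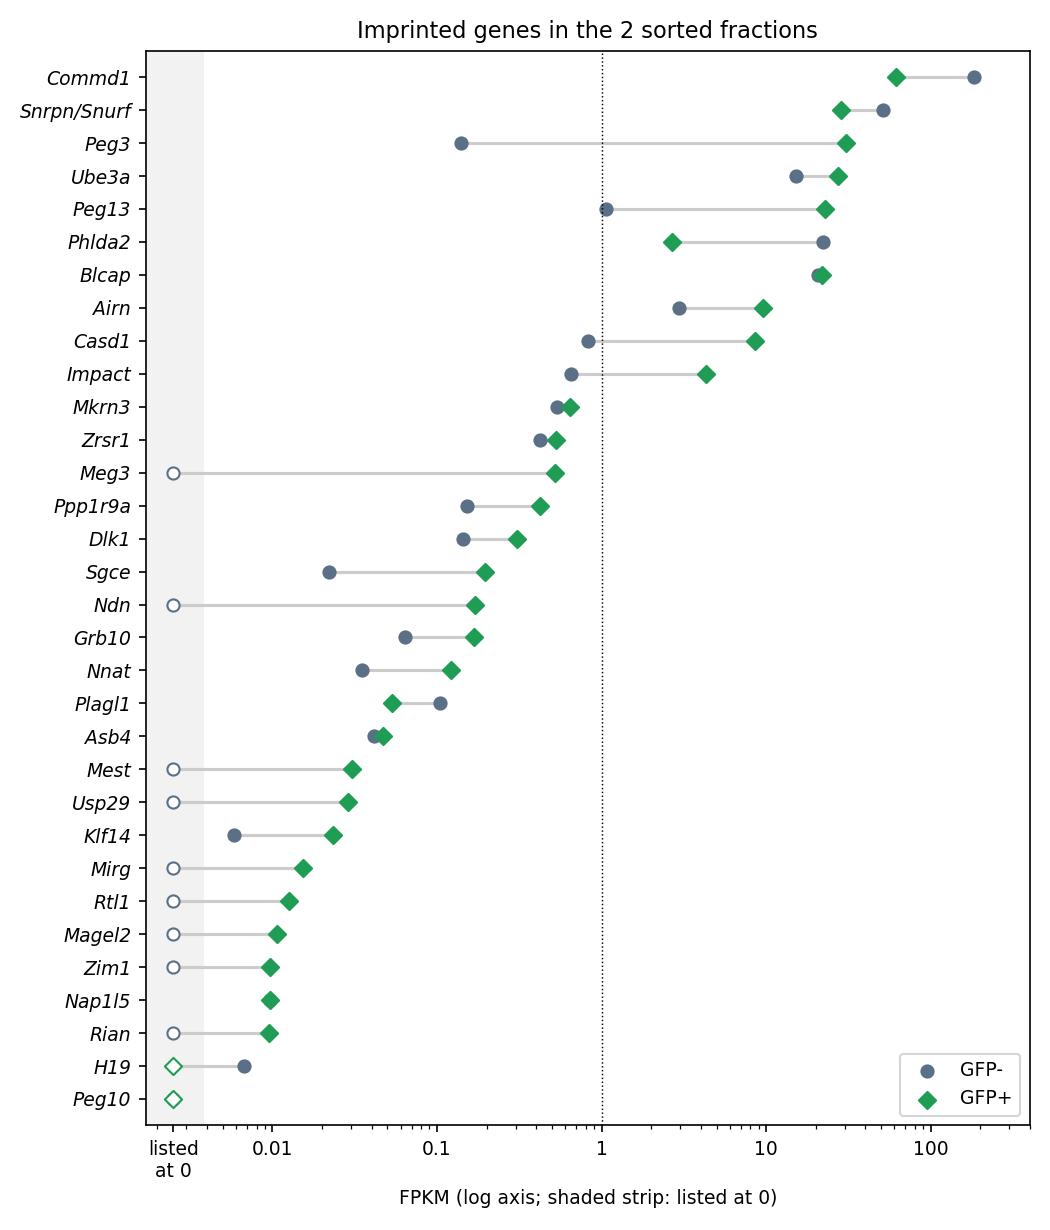
FPKM (log axis) of each of the 32 rows in the GFP- library (circles) and the GFP+ library (diamonds), ordered by the higher value, with open symbols in the shaded strip for values listed at 0 and a dotted line at 1 FPKM. *Peg3* spans the widest distance among rows above 0 in both libraries, from 0.140 to 30.4 FPKM; the symbols of *Nap1l5* lie on each other, as do those of *Peg10*, which was listed at 0 in both.

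*Peg3*, a paternally expressed gene for a large zinc-finger protein, had 0.140 FPKM in the GFP- library and 30.4 FPKM in the GFP+ library. This is 218 times as much, with a log2 difference of 4.78 (6.99 with a pseudocount of 0.1 and 2.78 with one of 5). In GFP+ its level was above that of about 86.6% of all symbols, and in GFP- above that of about 45.9%. The deposited upper bounds were 65.6 and 0.393 FPKM, and the lower bounds were 0. The listed locus (chromosome 7, 6705960 to 6730419, mm10, minus strand) also holds *Peg3os*, an RNA from the other strand, at 1.81 and 0.0650 FPKM. Whether strand was used in counting is not given in the sources used here, so reads of this pair may not have been separated. The other genes of the cluster stayed near 0. *Usp29*, a paternally expressed gene named as a ubiquitin protease, was at 0.0289 FPKM in GFP+ and listed at 0 in GFP-, and *Zim1*, a maternally expressed zinc-finger gene, was at 0.00971 FPKM and listed at 0. *Zim3*, on the listed locus of *Usp29*, was at 0.0251 FPKM in GFP+ and listed at 0 in GFP-.

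The start sites of *Peg3* and *Usp29* face away from each other and are 164 bases apart, so that their promoter windows are largely the same DNA. They are shown because these neighbours differed so much in level in the GFP+ library. Each window runs 5′ to 3′ on its gene's own strand, from 250 bases before the start to 50 after it (RefSeq, GRCm38.p6, the assembly of mm10), with CpG pairs, the targets of DNA methylation, in capitals. For *Casd1*, which has several windows, the one at its outermost start is shown. The windows of *Casd1* and *Phlda2*, which are higher and lower in GFP+ and are described below, follow for comparison.
Peg3, chr7:6730370-6730669, minus strand: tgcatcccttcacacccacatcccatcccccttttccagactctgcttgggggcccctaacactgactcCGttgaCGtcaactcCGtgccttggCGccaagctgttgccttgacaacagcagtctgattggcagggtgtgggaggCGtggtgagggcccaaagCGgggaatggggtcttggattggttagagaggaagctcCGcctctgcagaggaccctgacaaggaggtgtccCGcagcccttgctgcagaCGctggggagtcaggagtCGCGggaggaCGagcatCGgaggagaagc
Usp29, chr7:6730333-6730632, plus strand: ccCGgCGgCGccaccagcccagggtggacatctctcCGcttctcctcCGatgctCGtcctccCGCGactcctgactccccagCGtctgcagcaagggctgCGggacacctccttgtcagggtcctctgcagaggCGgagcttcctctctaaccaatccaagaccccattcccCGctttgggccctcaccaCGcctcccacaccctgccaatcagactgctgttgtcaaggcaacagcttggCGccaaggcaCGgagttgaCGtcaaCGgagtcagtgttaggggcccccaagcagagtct
Casd1, chr6:4600661-4600960, plus strand: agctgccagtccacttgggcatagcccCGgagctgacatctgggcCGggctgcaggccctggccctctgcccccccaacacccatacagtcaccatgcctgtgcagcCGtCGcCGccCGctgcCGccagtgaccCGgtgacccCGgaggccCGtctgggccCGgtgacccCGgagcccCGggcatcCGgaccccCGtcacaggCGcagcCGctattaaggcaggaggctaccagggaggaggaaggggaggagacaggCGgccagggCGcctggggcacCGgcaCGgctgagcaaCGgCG
Phlda2, chr7:143502475-143502774, minus strand: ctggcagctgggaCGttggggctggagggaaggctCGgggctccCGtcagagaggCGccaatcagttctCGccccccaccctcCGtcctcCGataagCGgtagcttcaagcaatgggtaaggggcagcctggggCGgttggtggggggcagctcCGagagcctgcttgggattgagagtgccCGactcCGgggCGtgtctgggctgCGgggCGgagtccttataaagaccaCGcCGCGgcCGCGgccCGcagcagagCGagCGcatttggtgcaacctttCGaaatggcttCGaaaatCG
The *Peg3* and *Usp29* windows share 263 bases (chr7:6730370-6730632), read on opposite strands, and these hold 13 CpG pairs, all that the *Peg3* window has. The *Usp29* window holds 17. The *Casd1* window holds 23 CpG pairs and the *Phlda2* window 26. Of all 32851 RefSeq windows of this length, 37.9% hold at least 13 pairs, 31.4% at least 17, 21.5% at least 23 and 16.9% at least 26. Each of the 4 windows shown thus has more CpG pairs than the median window, which holds 7. Another window of *Casd1*, at a start further inside the gene, holds 5.

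The sequence TGCCGC, bound when methylated by ZFP57, a protein that keeps imprints, was looked for on both strands. It occurs in the *Casd1* window and not in those of *Peg3*, *Usp29* or *Phlda2*. Windows of 26 of the 33 genes were used (37 windows, since some genes have several, and some windows overlap). Windows on chromosome 18 were left out for these genes, so *Impact* is not among the 26. TGCCGC occurs in 12 of the 37, or 32.4%, and in 11.6% of all RefSeq windows. The 12 count the identical window of *Snrpn* and *Snurf* for each gene, and nearly identical windows of *Mest* separately, so there are fewer distinct matches. The motif itself holds a CpG pair, and the windows of these genes hold a median of 11 such pairs. A match is a string of letters and no measured binding.

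*Peg13*, a paternally expressed long non-coding RNA, had 1.06 FPKM in GFP- but 22.7 in GFP+, which is 21.4 times as much (log2 difference 3.53, and 2.19 with a pseudocount of 5). Its gene lies inside *Trappc9*, a gene for a membrane-trafficking complex subunit, on the same strand and without shared exons (GENCODE M21), and both carry 1 listed locus (chromosome 15, 72589620 to 73061204). *Trappc9* was at 37.4 and 23.9 FPKM, a difference of 0.62. *Peg13* was thus far below its host gene in GFP- and nearer to it in GFP+. Its upper bound was 5.98 times its FPKM in GFP- and 2.75 times in GFP+, and the part of unspliced *Trappc9* RNA in the level of *Peg13* was not tested. Other genes around *Peg13* did not pass the size rule. *Chrac1*, a chromatin-remodelling subunit, was at 33.4 against 83.7 FPKM, *Ago2*, which carries microRNAs, at 1.36 against 1.68 FPKM, and the potassium channel gene *Kcnk9* at 0.117 FPKM in GFP+ and listed at 0 in GFP-.

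*Airn* is the paternally expressed non-coding RNA that silences its neighbours *Igf2r* and, in the placenta, *Slc22a2* and *Slc22a3* on the same chromosome. Its listed level was 9.54 FPKM in GFP+ against 2.96 in GFP-, a difference of 1.41, below the size rule as deposited and above it, at 2.09, with the same total in both libraries. *Igf2r*, the receptor that clears insulin-like growth factor 2 and sorts lysosomal enzymes, was at 31.6 against 6.11 FPKM, a difference of 2.20. *Slc22a3*, an organic cation transporter, was at 17.2 against 1.94 FPKM, a difference of 2.63, and *Slc22a2* at 0 and 0.0168 FPKM. The silencing RNA and 2 of the genes it is known to silence were therefore all higher in the same fraction. This did not hold for all rows of the interval from *Slc22a3* to *Igf2r*, where the highest level was 97.3 FPKM in GFP- and 31.6 FPKM in GFP+. With a pseudocount of 5, *Igf2r* and *Slc22a3* had 1.72 and 1.68. *Airn* overlaps *Igf2r* on the opposite strand with no exon in common (GENCODE M21) and shares its listed locus (chromosome 17, 12682406 to 12868143). Its upper bound was 13.9 times its FPKM in GFP+ and 10.6 times in GFP-, against a median of 2.35 over all rows of at least 1 FPKM, so the value of *Airn* is much less certain than that of *Igf2r*.

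**Figure D2:**
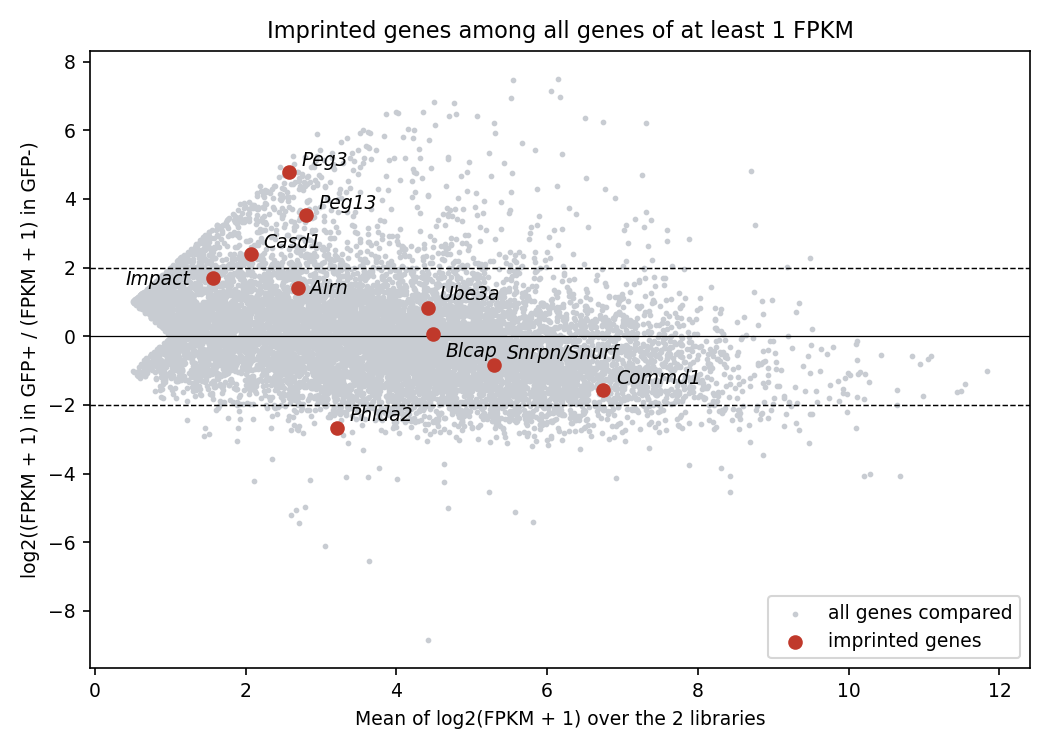
Each grey point is 1 of 11868 symbols that reached 1 FPKM in either library, with its mean log2(FPKM + 1) over both libraries on the x axis and the log2 difference, GFP+ over GFP-, on the y axis; dashed lines mark the 4-fold rule. The 10 rows of imprinted genes (red) run from *Peg3* at 4.78 to *Phlda2* at -2.66, and 6 of them lie between the lines.

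In the *Peg10* cluster on chromosome 6, *Casd1* had 0.832 FPKM in GFP- but 8.57 in GFP+, which is 10.3 times as much. The log2 difference was 2.38, and 1.22 with a pseudocount of 5, which misses the size rule. *Casd1* encodes a Golgi enzyme that acetylates sialic acids, and its imprinting is reported for some tissues only. The locus, chromosome 6, 4601066 to 4643381, is not shared with another row. *Sgce*, which encodes epsilon-sarcoglycan and is paternally expressed, was at 0.195 against 0.0220 FPKM. *Peg10*, a paternally expressed gene derived from a retrotransposon and needed in the placenta, was listed at 0 in both libraries although its start site adjoins that of *Sgce*. *Ppp1r9a*, which encodes the actin-binding protein neurabin, was at 0.421 against 0.152 FPKM. *Asb4*, a ubiquitin-ligase adaptor, was at 0.0468 against 0.0417 FPKM. Further genes of the cluster that are reported as imprinted reached 1 FPKM as well. *Pon2*, a lactonase gene, had 88.4 FPKM in GFP+ and 84.2 in GFP-, and its relative *Pon3* had 6.54 and 11.6 FPKM. *Tfpi2*, a protease inhibitor gene, was at 0.810 against 5.58 FPKM, a difference of -1.86. The expressed genes of this cluster thus differed in both directions.

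*Impact*, a paternally expressed inhibitor of the amino-acid stress kinase GCN2, had 0.650 FPKM in GFP- but 4.31 in GFP+, or 6.62 times as much. Its difference of 1.69 missed the size rule as deposited. It passed at 2.10 with the median ratio set to 0, at 2.51 with the same total and at 2.55 with a pseudocount of 0.1, and was 0.72 with a pseudocount of 5. Its listed locus (chromosome 18, 12972252 to 12992948) holds no other row.

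*Phlda2*, a maternally expressed gene that limits placental growth, went the other way. It had 22.3 FPKM in GFP- and 2.68 in GFP+, so that the GFP- level was 8.33 times the GFP+ level. The log2 difference was -2.66, and -1.83 with a pseudocount of 5, which misses the size rule. The locus, chromosome 7, 143501548 to 143502524, is its own. *Phlda2* belongs to the large cluster controlled by the non-coding RNA *Kcnq1ot1*, which was itself at 0.0602 and 0.0123 FPKM. It lies on the listed locus of *Kcnq1*, and its upper bounds were 12.5 and 32.0 times these values, so its level is uncertain. Among the other genes listed for that cluster, only *Ascl2*, a transcription factor of intestinal stem cells, was at least 4-fold lower as well, at 8.06 against 61.8 FPKM. *Cdkn1c*, a brake on the cell cycle, was at 12.4 against 8.80 FPKM, *Kcnq1*, a potassium channel, at 163 against 229 FPKM, and *Osbpl5*, a lipid-transfer protein gene, at 9.59 against 1.95 FPKM. The difference of *Osbpl5*, 1.85, passed the size rule at 2.31 and 2.58 under the other scalings and at 2.24 with a pseudocount of 0.1. The cluster therefore held genes of both directions. The stem and cycling markers, of which *Ascl2* is one, were also lower in sum in GFP+ (374 against 1425 FPKM over 7 genes), though *Mki67* was higher (3.55 against 3.18 FPKM). Lower sums were not particular to this list. They also held for the markers of Paneth cells, enterocytes (1677 against 3538 FPKM), goblet cells (1354 against 3165 FPKM), tuft cells and all epithelium. The part of stem and cycling cells in the level of *Phlda2* was not tested.

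**Figure D3:**
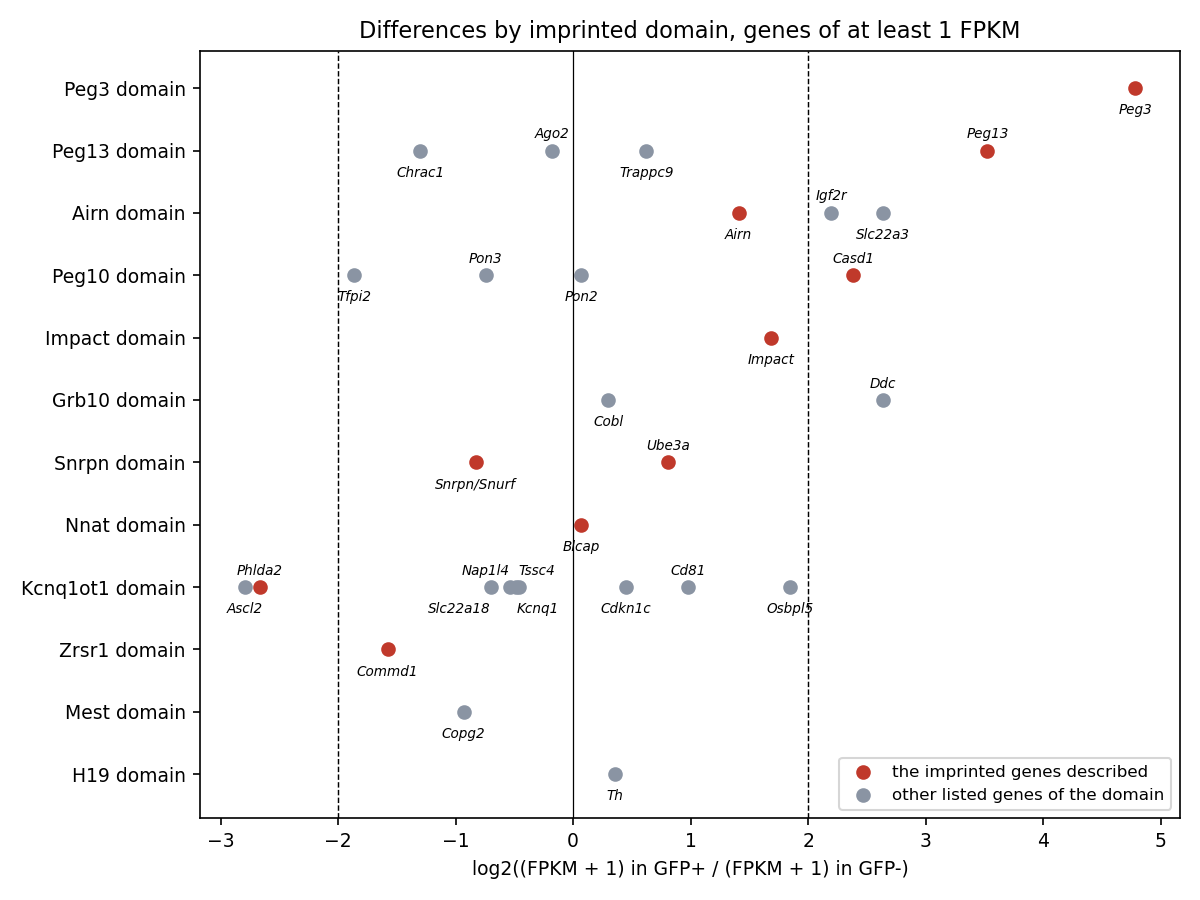
Log2 difference (GFP+ over GFP-, x axis) of each gene of at least 1 FPKM in either library, by imprinted cluster (rows); red points are the imprinted genes described and grey points are other listed genes of the same cluster, with dashed lines at the 4-fold rule. Both genes past the rule on the low side, *Ascl2* at -2.79 and *Phlda2* at -2.66, are in the *Kcnq1ot1* cluster, while the 3 plotted genes of the *Airn* cluster (*Airn*, *Igf2r* and *Slc22a3*) lie to the right of 0.

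The *Snrpn* cluster, whose paternal genes are lost in Prader-Willi syndrome and whose maternal gene *Ube3a* is lost in Angelman syndrome, held moderate values. The joined row of *Snrpn*, which encodes a splicing protein, and *Snurf*, which is made from the same transcript, had 51.6 FPKM in GFP- and 28.6 in GFP+, a difference of -0.83. *Ube3a*, a ubiquitin ligase that is imprinted in neurons and read from both chromosomes in most other cells, was at 27.3 against 15.1 FPKM, a difference of 0.81. Neither passed the size rule as deposited or in the other scalings. *Mkrn3*, a makorin-family ubiquitin ligase, was at 0.641 against 0.538 FPKM. *Ndn*, which encodes necdin, was at 0.170 FPKM in GFP+ and listed at 0 in GFP-, and its neighbour of the same family *Magel2* was at 0.0107 FPKM and listed at 0. The genes of this cluster thus ran from well expressed to almost none within the same libraries.

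Low values can be set against single fragments. From the steps between the lowest deposited values of genes with a single transcript, 1 FPKM over 1 kilobase was worth about 59.0 fragments in GFP- and 59.8 in GFP+. For the genes of 1 exon that share their locus with no other row, *Mkrn3* then rests on about 80.8 fragments in GFP- and 97.6 in GFP+. *Ndn* rests on 0 and about 16.8, *Magel2* on 0 and about 2.99, and *Klf14* on about 1.02 and 4.13. The values of *Magel2* and *Klf14* are thus those of a handful of fragments, and *Ndn* was seen in GFP+ only. These counts are estimates, and because the RNA was amplified and no molecular identifiers are described, several fragments may come from 1 molecule.

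The *Dlk1*-*Meg3* cluster on chromosome 12 was close to silent in both fractions. *Dlk1*, which encodes a transmembrane protein related to Notch ligands, was at 0.305 FPKM in GFP+ against 0.143 in GFP-. The maternal non-coding RNA *Meg3* was at 0.521 FPKM in GFP+ and listed at 0 in GFP-, the highest value of the cluster. *Rtl1*, a retrotransposon-derived gene of the placenta, and the maternal non-coding RNAs *Mirg* and *Rian*, hosts of microRNAs and small nucleolar RNAs, were at 0.0126, 0.0152 and 0.00948 FPKM in GFP+ and listed at 0 in GFP-. From *Dlk1* to *Dio3*, 61 of 67 rows were listed at 0 in both libraries. Most of these rows (52) open with the name of a microRNA, and 51 of the 52 were at 0. The libraries were made from polyadenylated RNA, so these zeros do not bear on mature microRNAs.

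In 4 further places an imprinted gene lies within or across another gene and shares its listed locus, and there *Nnat*, *Zrsr1*, *Nap1l5* and *Mest* were low. *Nnat*, a membrane proteolipid gene within an intron of *Blcap*, was at 0.122 FPKM in GFP+ against 0.0349 in GFP-. *Blcap* itself was at 21.9 and 20.8 FPKM, the smallest difference of the 10 rows at 0.07. *Zrsr1*, a paternally expressed splicing-factor retrogene inside *Commd1*, was at 0.528 against 0.424 FPKM. *Commd1*, a gene of copper handling and membrane recycling, was the most abundant of all 32 rows, at 61.2 against 185 FPKM, a difference of -1.58. *Nap1l5*, a paternally expressed gene inside *Herc3*, was at 0.00966 against 0.00967 FPKM beside *Herc3* at 14.7 and 9.50 FPKM. *Mest*, a paternally expressed hydrolase-like gene that overlaps *Copg2*, was at 0.0306 FPKM in GFP+ and listed at 0 in GFP-, beside *Copg2* at 11.5 and 22.8 FPKM. In each pair the partner is on the opposite strand. *Mest* shares 23.1% of its exonic bases with *Copg2* and *Zrsr1* 9.17% with *Commd1*, while *Nnat* and *Nap1l5* share none with their hosts.

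The deposited upper bounds were widest, relative to FPKM, for some of the genes at such places. Whether the split of reads between genes made them wide was not tested. Among the imprinted genes above 0 in GFP+ whose locus is not shared (16 rows), the upper bound was 2.32 to 3.45 times the FPKM. Among the 14 whose locus is shared it ran from 2.16 to 75.6 times. The highest ratios were those of *Nap1l5* (75.6), *Mirg* (46.6), *Mest* (31.4), *Nnat* (23.5) and *Airn* (13.9). Over all rows of at least 1 FPKM in GFP+ the median ratio was 2.44 where the locus is shared and 2.34 where it is not. The ratios of *Peg3* (2.16), *Casd1* (2.32), *Impact* (2.32) and *Phlda2* (2.72) in GFP+ were far below those of *Nap1l5* or *Airn*. Their intervals are still wide, since the lower bound was above 0 for 0 rows of the whole table in GFP+ and for 1 in GFP-.

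**Figure D4:**
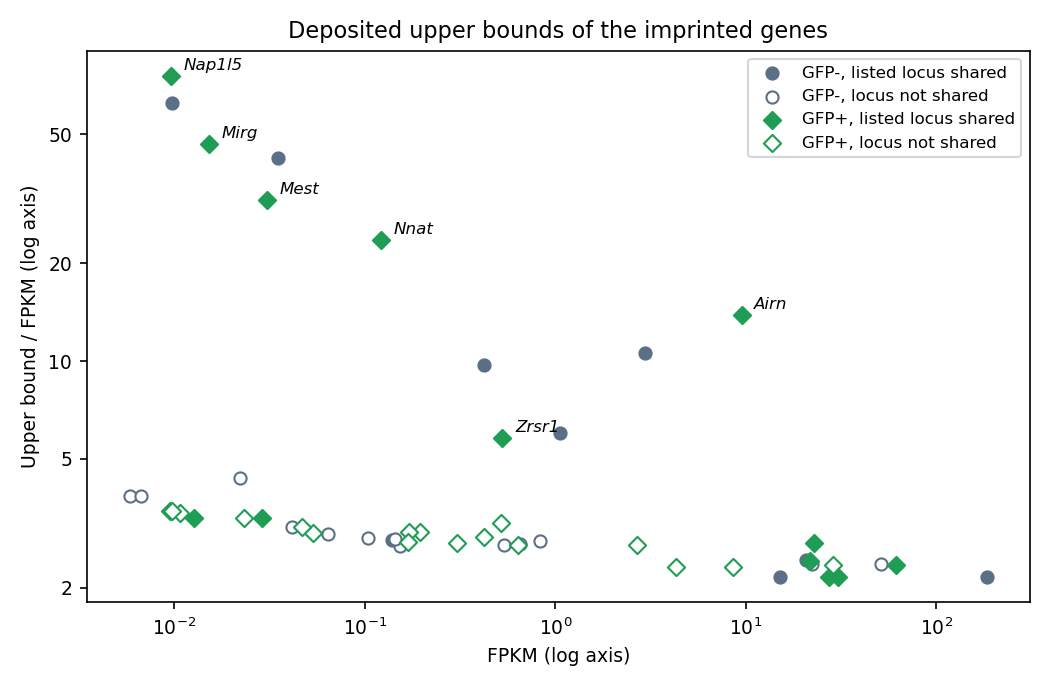
Deposited upper confidence bound divided by FPKM (y axis, log) against FPKM (x axis, log) for the imprinted genes above 0, with filled symbols where the listed locus is shared with another row and open ones where it is not. Ratios above 5 belong to genes on shared loci; those of unshared genes stay at or below 4.36.

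The remaining genes were low. *H19*, a maternal non-coding RNA abundant in fetal tissue, was at 0.00670 FPKM in GFP- and listed at 0 in GFP+. It was the only one of the 33 genes seen in GFP- alone. Its reciprocally imprinted neighbour *Igf2*, a fetal growth factor, was at 0.0275 FPKM in GFP+ against 0.0734 in GFP-. *Plagl1*, a zinc-finger transcription factor gene, was at 0.0535 against 0.104 FPKM, and *Grb10*, which restrains insulin-receptor signalling, at 0.168 against 0.0640 FPKM. *Ddc*, next to *Grb10* and imprinted in part of the heart, encodes the decarboxylase that makes serotonin and dopamine and was at 402 against 63.9 FPKM. *Klf14*, a Krüppel-like transcription factor gene, was at 0.0232 against 0.00582 FPKM. Among the 22 rows below 1 FPKM in both libraries, 18 were higher in GFP+, 3 were lower and 1 was at 0 in both. Over all 31 rows above 0 in either library, 25 were higher in GFP+ and 6 lower (26 and 5 under either other scaling, where *Nap1l5* changed sides), while 53.2% of all 17927 such symbols were higher in GFP+ (64.8% and 67.3% under the other scalings). Many of these values rest on few fragments, and the genes were listed with earlier results known, so the count is a description.

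Other genes reported as imprinted in mouse were spread around 0. Of 29 that reached 1 FPKM in either library, those past the rule on the high side were 4 (*Ddc*, *Igf2r*, *Slc22a3* and *Smoc1*). On the low side there was 1 (*Ascl2*), and 24 lay between, with a median of 0.07. Among all symbols compared, 7.09% were as much higher and 4.59% as much lower. With a pseudocount of 5 only 1 of the 29, *Ddc*, was as much higher. With one of 0.1 the count was 6, with the median ratio set to 0 it was 5, and with the same total 6. *Smoc1*, which encodes a secreted calcium-binding matrix protein, was at 8.24 against 0.856 FPKM. It entered only through GFP+ and so had to be higher there, and these counts support no statement about the genes as a class. By the higher of the 2 libraries, the most abundant were *Cd81*, a tetraspanin gene, at 909 against 460 FPKM and *Gnas*, which encodes the stimulatory G protein alpha subunit, at 400.2 against 538 FPKM.

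Of 20 genes that set, keep, read or erase the methylation of imprints, 14 were above 1 FPKM. *Uhrf1*, which brings the maintenance methyltransferase to newly copied DNA, was the only one past the size rule, at 15.6 FPKM in GFP+ against 65.6 in GFP- (-2.01). It was at -1.53 after the median ratio had been set to 0, at -1.43 with the same total and at -1.78 with a pseudocount of 5, each short of the rule. *Dnmt1*, the maintenance methyltransferase, was at 25.5 against 38.9 FPKM, and *Trim28*, the co-repressor at imprints, at 30.6 against 85.2 FPKM. *Dnmt3a*, a methyltransferase that sets new methylation, was at 12.0 against 2.45 FPKM, a difference of 1.91 that passed the rule under both other scalings. *Ctcf*, the insulator protein, was at 25.1 against 20.3 FPKM, and *Zfp57* at 0.119 against 0.0109 FPKM. Of the 14, 9 were higher in GFP+ and 5 lower as deposited, with a median of 0.12, against -0.12 over all symbols compared. Among all those symbols, 7.09% were at least 4-fold higher and 4.59% at least 4-fold lower. These counts support no statement about the keepers as a class.

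The fractions differed in cell content. Over 11 of 13 enteroendocrine markers, summed FPKM was 6259 in GFP+ and 203 in GFP-. *Chga* and *Chgb* had no estimate in GFP+, where 5 rows with too many fragments were listed at 0. The 7 Paneth cell markers summed to 760 and 12577 FPKM, and the 6 markers of all epithelium to 5003 and 9856 FPKM. All rows together summed to 407210 FPKM in GFP+ and 627401 FPKM in GFP-. Of the 6 epithelial markers *Cdh1* was higher in GFP+ (353 against 251 FPKM) and the others were lower. Their sum therefore does not tell the share of epithelial cells. Several markers of cells outside the epithelium were higher in GFP+. *Vim* stood highest, before *Pecam1* of endothelium (10.4 against 0.187 FPKM), *Ret* of enteric neurons (6.75 against 0.268 FPKM) and *Lyz2* of myeloid cells (6.61 against 0.858 FPKM). The mesenchyme list of 11 genes summed to 242 FPKM in GFP+ and 5.16 FPKM in GFP-, of which *Vim* made 237 and 4.90 FPKM, with *Col3a1* at 1.61 and 0.00593 FPKM and *Col1a1* at 1.56 and 0.0106 FPKM. The lists of endothelium (6 genes), immune cells (7) and enteric neurons and glia (9) summed to 10.9, 9.80 and 13.2 FPKM in GFP+ and to 0.476, 2.54 and 2.09 FPKM in GFP-. The summed level of each of these 4 lists was higher in GFP+. In endothelium *Pecam1* made nearly all of the sum, *Tek* and *Kdr* were listed at 0 in GFP+, and the list's median was 0.0110 against 0.0456 FPKM. The level of a marker in these libraries does not tell which cells held the RNA of another gene. The part of cells outside the epithelium in the levels of *Peg3*, *Peg13*, *Casd1* and *Meg3* was not tested.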

How the data were processed

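Messenger RNA of 2 sorted fractions, 1 library each, was analysed from the authors' deposited gene tables. Their values are FPKM with confidence bounds and a status, per the file headers. Per the submitters' processing notes the tools were FastQC, TopHat2 0.7, Cufflinks and Cuffdiff, with the mm10 genome. How reads were assigned by strand or when mapped to several places, and with which annotation, is not given in the sources used here. Rows named by a listed symbol, alone or joined to others by commas, were taken. FPKM was summed per symbol over rows estimated in both libraries (23532 symbols). Differences were taken with a pseudocount of 1 FPKM over symbols that reached 1 FPKM in either library, and a size rule of 2 on the log2 scale took the place of a test. Locus starts were shifted to count from 1. Overlaps, strands and exons came from GENCODE M21 (the mm10 assembly), and promoter windows from RefSeq. Depth is not given in the files. The step of low FPKM values was taken from single-transcript genes longer than 3000 bases: 40 genes in GFP- and 18 in GFP+ lay within 5% of it, and 75.2% of 109 and 59.0% of 83 low values lay within 0.1 of a whole number of steps, a share that is no independent check because the step was chosen from the same values.

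The genes named are all 33 imprinted genes, the other imprinted genes past the size rule and the most abundant of them, a fixed set of genes that keep imprints, and neighbours on a shared locus or in the same cluster; *Chrac1*, *Ago2*, *Kcnk9*, *Igf2*, *Slc22a2*, *Pon2*, *Pon3*, *Tfpi2*, *Cdkn1c*, *Osbpl5*, *Dnmt3a* and *Kcnq1ot1* were added after their values were seen. The genes and lists were chosen with earlier results of these data known. The calculation was tested on simulated data without noise, in which large known changes had been set into well-expressed genes. That checks the arithmetic only and does not bear on low values, shared loci or spread between libraries. Python 3.11.15, numpy 2.4.6, pandas 2.3.3 and matplotlib 3.10.9 were used.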

Additional observations from a re-analysis of the deposited data

How the results depend on the processing

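No paired analysis was possible because each fraction has 1 library, and for the same reason no library could be left out. The 9 alternatives changed the pseudocount, the scaling, the filter on low values or the rows taken. With the same total in both libraries the imprinted genes past the size rule on the high side were 5, and with a pseudocount of 5 none (0) was 4-fold lower. The median difference of the imprinted genes was 1.25 with a pseudocount of 0.1, 0.70 with one of 5, 1.58 with the median ratio set to 0, 0.95 with the same total, 0.81 with a minimum of 5 FPKM, 0.056 with no filter and 1.41 without joined rows. Of the other imprinted genes, 2 were 4-fold lower with a pseudocount of 0.1, and 1 was 4-fold higher with one of 5. Those 4-fold higher were 6 with a pseudocount of 0.1, 5 with the median ratio set to 0 and 6 with the same total. Over all genes, 1524 were higher with a pseudocount of 0.1, 353 higher and 315 lower with one of 5, 1317 and 184 with the median ratio set to 0, and 1717 and 153 with the same total. Among the named genes of at least 1 FPKM recomputed one by one, none changed direction. *Nap1l5*, near 0 in both libraries, did under both scalings. Other named genes were not recomputed singly, and their directions can depend on the scaling. *Gnas* and *Kcnq1*, at -0.43 and -0.48, lay above the median log2 ratio of well-expressed genes, -0.50. Setting that ratio to 0 therefore puts both higher in GFP+. Of the 160 values recomputed for single genes, 142 stayed on their side of the size rule, 8 no longer passed it and 10 passed it only under the alternative. Fewer genes enter under a higher minimum or without joined rows; the other causes were not tested. With 1 library per fraction, spread between cultures is unknown, and the lowest values rest on few fragments.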
